A study of Mus musculus with 12 samples.

Results

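The heat shock proteins and chaperones of the cytosol, with their cochaperones, were followed as mRNA in the colon mucosa of 12 bone marrow chimeric mice. The genes were chosen by their names: the Hspa, Hspb and Hsp90a families, Hsph1, Hspd1, Hspe1, the Dnaja and Dnajb families, the Cct subunits with Tcp1, the Bag family, Chordc1, Ahsa1 and Stip1. Hspa5, Dnajb9 and Dnajb11 of the endoplasmic reticulum were left out. The rule matched 77 gene symbols, of which 57 had a probe on the array (88 probes), out of 17016 genes with a symbol there. Of these, 54 passed the filter on dim probes and were tested among 23614 genes, with each gene read from the probe selected by the highest mean over the 12 arrays. Hspb6, Cct8l1 and Dnajb7 had probes and did not pass. The other 20 symbols, among them Hspa1b, Dnajb5, Dnajb14 and pseudogenes, were not analysed here. The list was proposed with the levels of these arrays and the marrow-by-treatment difference already known, so its counts and medians are descriptions and carry no test of the list.

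Chaperones bind unfolded protein and help it reach its native shape. Hsp70 proteins do so in cycles of ATP hydrolysis, which DnaJ proteins start and Hsp110 and Bag proteins end by exchanging the nucleotide, and Hsp90 takes over clients such as kinases and steroid receptors with the help of cochaperones. The ring complex TRiC folds actin and tubulin, and small heat shock proteins hold unfolded protein without ATP. Many of these genes are switched on by the transcription factor HSF1 under heat or protein damage, and in the gut heat shock proteins are known to protect the epithelium during injury. The label "cytosolic" was not exact for the matched names. Hspa9, Hspd1, Hspe1 and Dnaja3 encode mitochondrial chaperones, Hspa13 and Dnajb12 belong to the endoplasmic reticulum, Hspb11 is a protein of cilium transport, and Hspbap1 and Hspbp1 match by name without being heat shock proteins.

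All recipients were wild-type C57BL/6 mice, and their blood-forming cells came from C57BL/6 donors that were wild-type (WT marrow) or lacked Muc1, a membrane mucin gene (KO marrow). Epithelium, stroma and other host cells kept Muc1 in every mouse. Treated mice received 12.5 mg/kg of the colon carcinogen azoxymethane (AOM) into the abdomen. After 5 days they began to drink dextran sodium sulfate (DSS), which injures the colon lining. DSS was given at 2% for 4 days with 14 days of plain water, then once more in the same way, and last at 2.5% for 5 days, and the colon was taken 1 day later. The other mice were untreated. The 4 groups, WT_untreated, KO_untreated, WT_AOMDSS and KO_AOMDSS, held 3 mice each, with 1 scraped mucosa per array.

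Levels are given as the log2 signal of a probe minus the 75th percentile of its array, and a change is a difference of such levels ± SE. Levels of different genes are not compared, since probes differ in brightness. A gene was called when its adjusted p in limma, over all 23614 genes, was under 0.05. The arrays lay on 3 slides: all WT_untreated mice and KO_untreated 1 were on slide 1, the third mouse of each treated group was on slide 2 beside KO_untreated 2 and 3, and the other 4 treated mice were on slide 3, which was scanned on the earlier of 2 days. The 75th percentile was 332 to 767.8 units, except on WT_AOMDSS 3, where it was 153.2. Muc1 stood at -1.82 ± 0.38, -2.94 ± 0.84, -2.39 ± 1.04 and -1.90 ± 0.79 (SD, n = 3) in WT_untreated, KO_untreated, WT_AOMDSS and KO_AOMDSS and passed in no comparison, which checks little because host cells keep the gene. Summed over 13 colon epithelium genes the linear signal was 1820 to 4030 times the percentile in every mouse. Neutrophil genes summed to 0.175 to 0.711 in the untreated mice and 11 to 125 in the treated ones, and monocyte and macrophage genes to at most 38.1 and at least 44.7. Of 10 fibroblast genes 2 were called higher with treatment with WT marrow and 3 with KO marrow, with sums of 1.47 to 14.1 untreated and 4.39 to 19.6 treated. Adipocyte genes summed to 87.5 in WT_untreated 2, the highest of the 12 mice, and to 4.10 and 6.68 in the other WT_untreated mice. These stand beside every treatment change that follows, and their part in it was not tested. In a whole tissue, fewer cells of a type and less RNA per cell cannot be told apart.

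With WT marrow, AOM and DSS went with higher mRNA of an Hsp90 and Hsp110 group. Of the 54 genes, 8 rose and 1 fell. Hsph1 rose 3.71-fold, Cct8 and Cct6b of the TRiC ring 2.18-fold and 2.19-fold, Hspa4l 2.05-fold, and Hsp90aa1, Hsp90ab1, Chordc1 and Ahsa1 between 1.85-fold and 1.93-fold. The gene that fell was Hspa1l, an Hsp70 gene best known from testis, by 2.94 on the log2 scale. The 9 called genes were 16.7% of the 54, where 13.7% of all genes were called. Only 3.57% of all genes were called higher, against 14.8% of the 54, and 10.1% lower, against 1.85%. At an unadjusted p under 0.05 there were 22 of the 54 (40.7%), where all genes gave 33%. Treated and untreated mice did not overlap in 14 genes on the higher side (25.9%, background 11%) and in 5 on the lower side (9.26%, background 21.8%). Among the 5 was Dnajb13, which entered the test only through WT_untreated, so the filter itself favours its fall. The median change was 0.31 over the 54 genes and -0.24 over all genes.

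Those shares moved with the choice of arrays and scaling. Without WT_untreated 1, WT_untreated 2 or WT_AOMDSS 1 only Hsph1 was still called, and without the dim array WT_AOMDSS 3 there were 20 genes, 16 higher and 4 lower, while 7617 of all genes were then called. Among the 4 were Dnajb8 and Dnajb13, which entered the test only through WT_untreated, so the filter itself favours their fall. With quantile normalization 10 genes rose and 3 fell, and the medians were 0.30 over the 54 genes and -0.04 over all genes. With normexp background correction the medians were 0.17 and 0.40, so the order of list and all genes turned, and Hsph1 alone was called. With array quality weights 38 of the 54 genes, 26 higher and 12 lower, and 13040 of all genes were called. With slide as a block 0 of the 54 genes and 128 of all genes passed, and the medians were 0.53 and 0.47. No slide holds mice of both WT-marrow groups, so the treatment change with WT marrow has no value within a slide. With slide as a block, slide 1 is linked to the other slides through KO_untreated 1, its only mouse outside WT_untreated. Every value of the WT-marrow change with slide as a block thus depends on this 1 mouse with KO marrow.

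**Figure D1:**
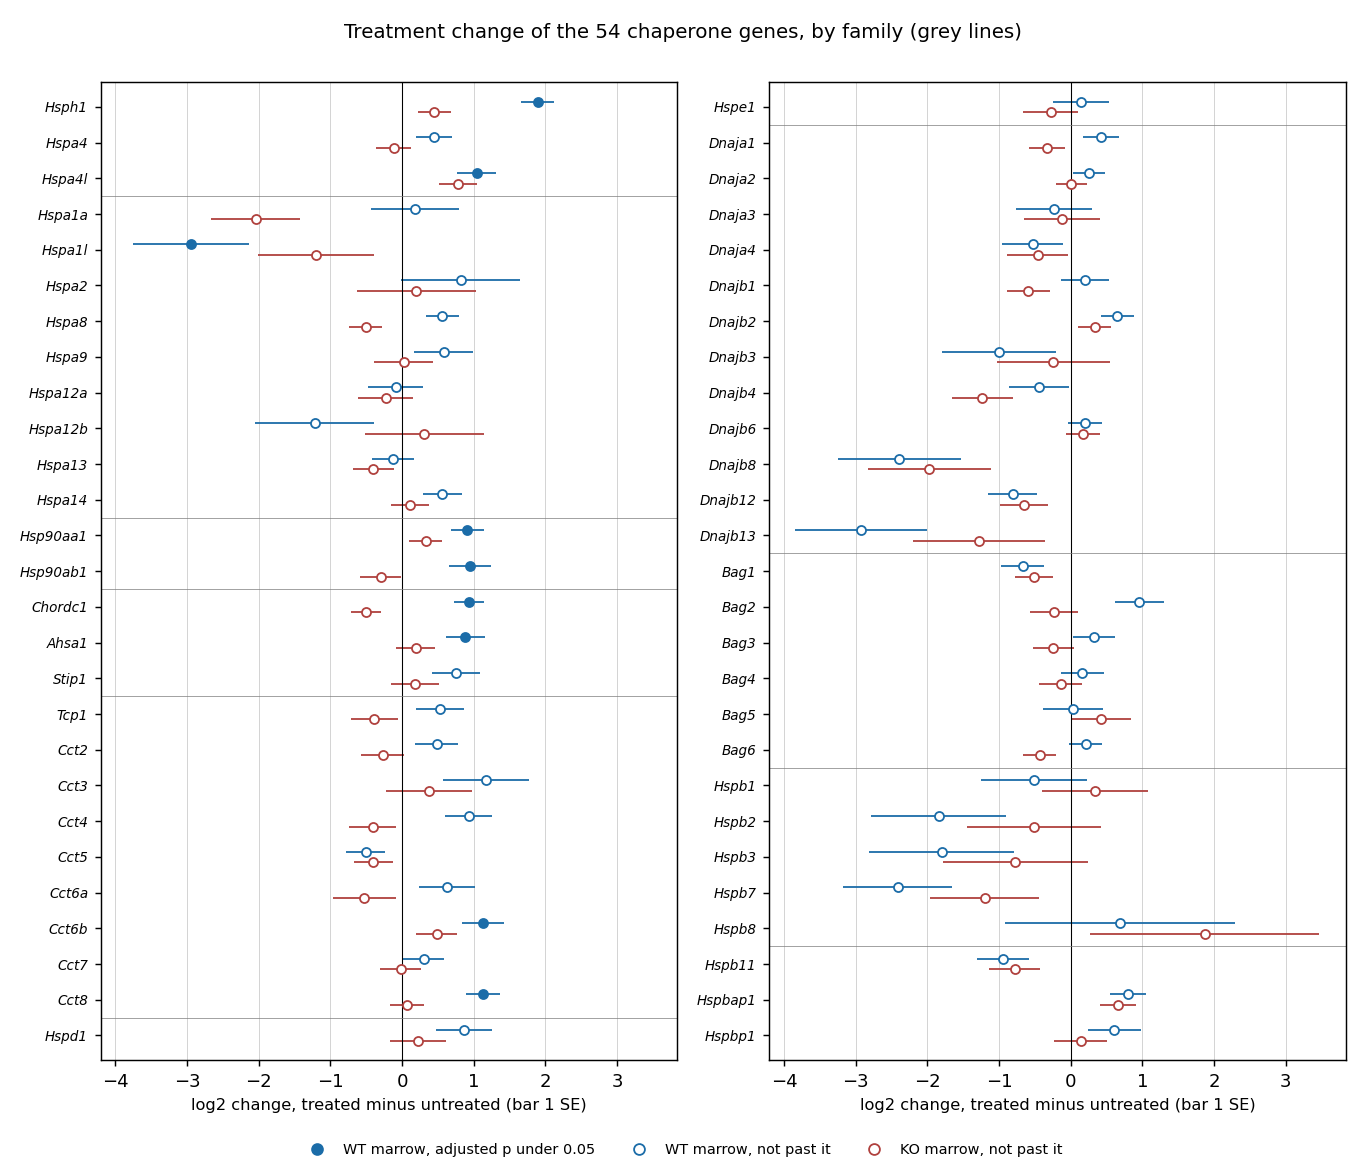
Log2 change from untreated to treated mice (x axis, bar 1 SE) of the 54 chaperone genes tested, with WT marrow in blue and KO marrow in red, and grey lines between families. Filled points passed an adjusted p of 0.05 in limma: 9 with WT marrow, led by Hsph1 at 1.89, and 0 with KO marrow.

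Hsph1 encodes Hsp105, the stress-inducible Hsp110 that recharges Hsp70 with ATP, and it had the smallest adjusted p of the 54 genes. It stood at 1.94, 1.92 and 1.84 in WT_untreated and at 3.80, 3.76 and 3.81 in WT_AOMDSS. In the mice with KO marrow it stood at 3.41, 3.11 and 3.34 untreated and at 3.81, 4.13 and 3.27 treated. The 3 WT_untreated mice thus lay below all 9 others, which ranged from 3.11 to 4.13. The treatment change was 1.89 ± 0.23 with WT marrow (limma, adjusted p = 0.00173) and 0.45 ± 0.23 with KO marrow (adjusted p = 0.406). Hsph1 stayed called with WT marrow when any 1 array was left out, and with slide as a block its change was 1.85 ± 0.40 at an adjusted p of 0.0707.

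Chordc1 encodes a zinc-binding partner of Hsp90 that is itself induced by heat. It stood at 0.99, 1.03 and 1.24 in WT_untreated, at 2.18, 2.00 and 1.87 in WT_AOMDSS, at 1.85, 1.92 and 2.00 in KO_untreated and at 1.60, 1.37 and 1.29 in KO_AOMDSS. Every treated mouse with WT marrow was above its untreated group, and every treated mouse with KO marrow was below its own. The change was 0.93 ± 0.21 with WT marrow (limma, adjusted p = 0.0186) and -0.50 ± 0.21 with KO marrow (adjusted p = 0.274). The second probe of Chordc1 gave 0.99 with WT marrow and 0.16 with KO marrow, so the lower levels in treated mice with KO marrow rest on 1 of its probes. With slide as a block the changes were 0.68 (adjusted p = 0.351) and -0.68 (adjusted p = 0.11).

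Hsph1 and Chordc1 were, among the called genes with a promoter in the table used, those that hold a heat shock element, the binding motif of HSF1, in its form of 3 alternating units (GAANNTTCNNGAA or TTCNNGAANNTTC, N any base, each the reverse complement of the other, so that both strands were searched). Windows of 250 bases before to 50 bases after the start site were taken from RefSeq (build GRCm38.p6), which had one or more for 49 of the 57 genes. The element was present in 7 of 63 promoters of these genes (11.1%) and in 198 of 32851 promoters of all genes (0.603%). The 7 are not separate sites: 2 overlapping windows of Hsph1 hold the same element, as do 2 of Dnajb6, and Hspd1 and Hspe1 share theirs. A shorter form of 2 units (GAANNTTC or TTCNNGAA), which the longer form contains, was present in 20 of the 63 (31.7%) and in 15.1% of all promoters. The 5 genes with the longer form were Hsph1, Chordc1, Hspd1, Hspe1 and Dnajb6, and 6 of the 8 genes that rose had a promoter in the table. The stretches are shown for these 2 genes that rose, with the elements in capitals, 5′ to 3′ on the strand of the gene. Hsph1 lies on the minus strand at chr5:149636280-149636308, from base 8 to base 36 after the start site. Chordc1 lies on the plus strand at chr9:18292260-18292288, around its start site, where 3 elements overlap in 1 run.
Hsph1: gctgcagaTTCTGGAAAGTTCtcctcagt
Chordc1: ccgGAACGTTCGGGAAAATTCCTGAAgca

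Hspd1 and Hspe1, which encode the mitochondrial Hsp60 and Hsp10 rings, are transcribed away from each other, and the same 2 elements lie in both promoter windows at chr1:55088039-55088096. Dnajb6 holds 1 element on the plus strand at chr5:29735832-29735884. Hspa1a, the stress-inducible Hsp70, had the shorter form only in its window, shown in capitals at chr17:34972233-34972280 on the minus strand. These stretches are shown for comparison, since none of the 4 genes passed in the 5 comparisons as fitted here without a slide term on all 12 arrays. A match describes letters in a window and not a bound site.
Hspd1: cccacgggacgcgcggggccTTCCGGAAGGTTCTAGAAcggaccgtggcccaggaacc
Hspe1: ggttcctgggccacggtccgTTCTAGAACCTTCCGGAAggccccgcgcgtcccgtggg
Dnajb6: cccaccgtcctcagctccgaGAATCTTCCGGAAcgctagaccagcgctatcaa
Hspa1a: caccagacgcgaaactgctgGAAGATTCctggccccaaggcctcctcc

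The other Hsp110 genes were Hspa4l and Hspa4. Hspa4l stood at 1.09, 0.69 and 0.93 in WT_untreated, at 1.93, 1.85 and 2.05 in WT_AOMDSS, at 1.30, 1.13 and 1.10 in KO_untreated and at 1.91, 2.51 and 1.44 in KO_AOMDSS. Treated mice lay above untreated ones with either marrow. The change was 1.04 ± 0.27 with WT marrow (limma, adjusted p = 0.0295) and 0.78 ± 0.27 with KO marrow (adjusted p = 0.171), and its 3 probes gave 1.04, 0.83 and 1.15 with WT marrow. Hspa4, the constitutive member, stood at 2.58, 2.31 and 3.07 in WT_untreated, at 2.88, 2.98 and 3.43 in WT_AOMDSS, at 2.83, 2.81 and 2.82 in KO_untreated and at 2.52, 2.58 and 3.02 in KO_AOMDSS. These groups overlapped, with changes of 0.44 ± 0.25 and -0.12 ± 0.25 that did not pass, and its probes disagreed in sign.

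Both cytosolic Hsp90 genes rose with WT marrow. Hsp90aa1, the inducible form, stood at 5.92, 5.49 and 5.59 in WT_untreated, at 6.72, 6.21 and 6.79 in WT_AOMDSS, at 6.34, 6.00 and 6.00 in KO_untreated and at 6.39, 6.61 and 6.32 in KO_AOMDSS. Hsp90ab1, the constitutive form, stood at 4.61, 4.73 and 5.34, at 6.02, 5.47 and 6.03, at 5.19, 5.88 and 5.64 and at 5.68, 5.17 and 4.95 in the same order of groups. On the probe used for each gene all treated mice with WT marrow were above all untreated ones, and the groups with KO marrow overlapped. On the second probe of Hsp90ab1 the WT-marrow groups overlapped, at 0.80, 1.41 and 2.20 untreated and 2.48, 2.30 and 2.13 treated. That probe gave a change of 0.84 with WT marrow, and the separation of Hsp90ab1 rests on 1 probe. The changes with WT marrow were 0.91 ± 0.23 for Hsp90aa1 (limma, adjusted p = 0.0274) and 0.95 ± 0.29 for Hsp90ab1 (adjusted p = 0.0465). With KO marrow they were 0.33 ± 0.23 and -0.30 ± 0.29, neither past the threshold. Hsp90ab1 was near the threshold and lost its call when any 1 of 8 arrays was left out, and with slide as a block it gave 0.32 (adjusted p = 0.772).

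Of the Hsp90 cochaperones, Ahsa1, which speeds up the ATPase of Hsp90, rose and Stip1, the adaptor that joins Hsp70 to Hsp90, did not pass. Ahsa1 stood at 4.27, 3.97 and 4.40 in WT_untreated, at 5.04, 4.66 and 5.60 in WT_AOMDSS, at 4.55, 4.56 and 4.62 in KO_untreated and at 4.74, 5.19 and 4.36 in KO_AOMDSS. Stip1 stood at 1.07, 0.82 and 1.15, at 1.69, 1.53 and 2.08, at 1.28, 1.57 and 1.27 and at 1.45, 2.40 and 0.82 in that order. In both genes WT_untreated lay below WT_AOMDSS without overlap. The change of Ahsa1 was 0.88 ± 0.27 with WT marrow (limma, adjusted p = 0.0485) and 0.19 ± 0.27 with KO marrow, and that of Stip1 was 0.75 ± 0.34 (adjusted p = 0.143) and 0.18 ± 0.34. Without WT_AOMDSS 3, its highest mouse, Ahsa1 gave 0.64 (adjusted p = 0.0702).

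TRiC is built from 8 kinds of subunit, Tcp1 and the Cct proteins, and 9 of its genes were tested, Cct6b being a second form of the zeta subunit best known from testis. With WT marrow 8 of the 9 changes were positive, with a median of 0.62, and Cct8 and Cct6b passed. Cct8 stood at 2.12, 2.20 and 2.85 in WT_untreated, at 3.60, 3.33 and 3.62 in WT_AOMDSS, at 2.91, 3.24 and 3.06 in KO_untreated and at 2.98, 3.31 and 3.13 in KO_AOMDSS. Cct6b stood at 1.89, 1.75 and 2.24, at 3.04, 2.58 and 3.64, at 2.12, 2.47 and 2.29 and at 2.71, 3.14 and 2.45 in that order. In both genes the WT-marrow groups did not overlap. The changes were 1.13 ± 0.24 for Cct8 (limma, adjusted p = 0.0151) and 1.13 ± 0.29 for Cct6b (adjusted p = 0.0282) with WT marrow, and 0.07 ± 0.24 and 0.48 ± 0.29 with KO marrow.

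Tcp1, the alpha subunit, stood at 2.43, 2.67 and 3.45 in WT_untreated, at 3.77, 3.50 and 2.86 in WT_AOMDSS, at 3.30, 3.63 and 3.56 in KO_untreated and at 3.21, 3.50 and 2.61 in KO_AOMDSS. Cct2, the beta subunit, stood at 4.37, 4.30 and 5.04, at 4.89, 4.70 and 5.56, at 4.79, 5.16 and 5.16 and at 4.35, 4.77 and 5.16 in that order. Neither passed, and in both WT_untreated 3 was the highest of its group. The remaining subunits gave changes from -0.51 (Cct5) to 1.17 (Cct3) with WT marrow. With slide as a block only 3 of the 9 changes with WT marrow were positive and their median was -0.17, so the direction of this family turned with the slide.

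Hsp70 genes gave no common direction: 5 of 9 changes were positive with WT marrow, with a median of 0.18 (-0.01 with normexp background correction), and 1 gene was called. Hspa8, the constitutive Hsc70, stood at 6.06, 6.33 and 6.64 in WT_untreated, at 6.75, 6.84 and 7.11 in WT_AOMDSS, at 7.06, 7.11 and 7.30 in KO_untreated and at 6.43, 6.92 and 6.60 in KO_AOMDSS. Treated mice lay above untreated ones with WT marrow and below them with KO marrow, without overlap, although the distance was small. The changes of Hspa8 were 0.56 ± 0.23 (limma, adjusted p = 0.109) and -0.51 ± 0.23 (adjusted p = 0.33), and its second probe gave 0.63 and -0.60. On that second probe the groups overlapped with either marrow, so the separation rests on 1 probe. It ran from 3.09 to 4.66 in WT_untreated, 3.00 to 5.38 in WT_AOMDSS, 4.61 to 5.17 in KO_untreated and 3.69 to 4.98 in KO_AOMDSS.

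Hspa1a stood at 1.01, 1.80 and -1.04 in WT_untreated, at 0.81, 1.64 and -0.11 in WT_AOMDSS, at 2.30, 1.43 and 2.66 in KO_untreated and at 0.39, -0.06 and -0.07 in KO_AOMDSS. Untreated mice with KO marrow were all above treated ones, while the WT-marrow groups spanned each other. The change was 0.18 ± 0.62 with WT marrow and -2.04 ± 0.62 with KO marrow (limma, adjusted p = 0.112). With KO marrow its 4 probes gave -2.04, -2.11, -2.39 and -1.68. The value with slide as a block was -2.48 (adjusted p = 0.0825), and within slide 2, where 1 treated mouse stands against 2 untreated ones, it was -2.11 (adjusted p = 0.0122). Hspa1a and Hspa1b are near-identical copies, so these probes may read both.

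Hspa1l was the gene that fell. It stood at -0.97, -1.01 and -1.45 in WT_untreated, at -4.97, -5.00 and -2.29 in WT_AOMDSS, at -1.27, -3.88 and -4.03 in KO_untreated and at -4.81, -4.33 and -3.63 in KO_AOMDSS. The 4 arrays of slide 1 held the 4 highest values, KO_untreated 1 among them. The change with WT marrow was -2.94 ± 0.81 (limma, adjusted p = 0.0355), and with slide as a block it was 0.95 (adjusted p = 0.537), a turn of direction. With KO marrow it was -1.20 ± 0.81, and 0.32 within slide 2.

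Among the other Hsp70 genes, Hspa9, the mitochondrial form, stood at 4.51, 4.04 and 4.50 in WT_untreated, at 4.63, 4.08 and 6.11 in WT_AOMDSS, at 4.24, 4.46 and 4.69 in KO_untreated and at 4.14, 4.43 and 4.87 in KO_AOMDSS. The dim array WT_AOMDSS 3 was the highest of all 12. Hspa2, Hspa12a, Hspa12b, Hspa13 and Hspa14 gave changes from -1.22 to 0.82 with WT marrow, and none passed.

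**Figure D2:**
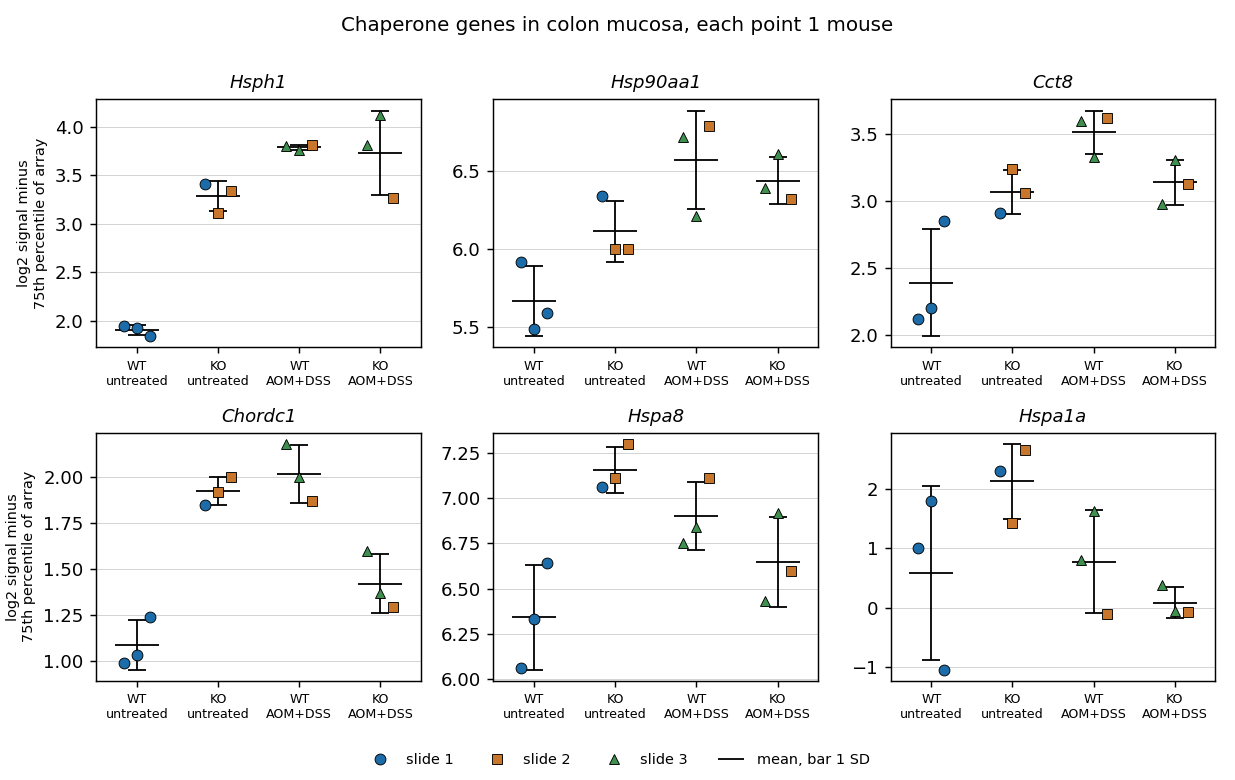
Level (y axis, log2 signal minus the 75th percentile of the array) of Hsph1, Hsp90aa1, Cct8, Chordc1, Hspa8 and Hspa1a in each of the 12 mice by group (x axis), with the slide as colour and shape and the group mean ± SD in black. WT_untreated is the lowest group for the first 5 genes, and Chordc1 lies at 1.09 in WT_untreated, 1.92 in KO_untreated, 2.02 in WT_AOMDSS and 1.42 in KO_AOMDSS on average.

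The mitochondrial chaperonin genes did not pass. Hspd1 stood at 5.71, 5.14 and 5.59 in WT_untreated, at 6.21, 5.47 and 7.34 in WT_AOMDSS, at 5.76, 5.75 and 5.73 in KO_untreated and at 5.46, 6.06 and 6.39 in KO_AOMDSS. Hspe1 stood at 4.73, 3.74 and 3.85, at 4.16, 3.59 and 4.99, at 4.57, 3.83 and 3.75 and at 3.21, 4.04 and 4.05 in that order. On the probe used for each gene the highest value was that of WT_AOMDSS 3, and treated and untreated mice overlapped with either marrow. On these probes the change of Hspd1 with WT marrow was 0.86 ± 0.39 (limma, adjusted p = 0.147), and that of Hspe1 was 0.14 ± 0.39. On the second probe of Hspd1 the WT-marrow groups did not overlap, at 0.93, 1.11 and 1.97 untreated and 2.80, 2.46 and 2.64 treated. That probe gave changes of 1.29 with WT marrow and -0.08 with KO marrow, and WT_AOMDSS 1 was its highest mouse.

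Of the 12 DnaJ genes of classes A and B, the partners that hand clients to Hsp70, 0 passed in either marrow, and 7 and 9 of the 12 changes were negative (5 and 7 with normexp background correction, 3 and 8 with slide as a block). Among the 7 were Dnajb3, Dnajb8 and Dnajb13, which entered the test only through WT_untreated. The filter itself favours their fall with WT marrow, so the 7 show no direction of this family. Dnaja1 stood at 4.07, 3.72 and 3.99 in WT_untreated, at 4.66, 4.58 and 3.82 in WT_AOMDSS, at 4.83, 4.57 and 4.42 in KO_untreated and at 4.03, 4.37 and 4.44 in KO_AOMDSS. Dnajb1, the classic Hsp40, stood at 5.62, 5.01 and 5.02, at 5.21 and 5.62 (WT_AOMDSS 2 was missing), at 6.23, 5.25 and 5.58 and at 4.74, 5.21 and 5.33 in that order. Both genes overlapped between treated and untreated mice. Dnajb4 stood at 0.58, 0.23 and 0.73 in WT_untreated, at -0.70, 0.05 and 0.87 in WT_AOMDSS, at 1.85, 1.03 and 1.35 in KO_untreated and at -0.19, -0.22 and 0.94 in KO_AOMDSS. Treated mice with KO marrow were all below untreated ones, by 1.23 ± 0.42 on average (limma, adjusted p = 0.162). Slide as a block gave -0.23 for that change, and the mice of slide 2 gave -0.25, both on the probe used. The second probe of Dnajb4 gave -1.04 with KO marrow, also without overlap. On slide 2 that probe stood at -0.81 and -1.13 in KO_untreated 2 and 3 and at -2.62 in KO_AOMDSS 3. The small change within slide 2 thus rests on 1 probe.

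Some DnaJ genes were dim. Dnajb8 and Dnajb13 were well above background on all 3 WT_untreated arrays and on none of the WT_AOMDSS arrays. Both entered the test only through WT_untreated, so the filter itself favours a higher level there, and no fold is given. Neither passed in the limma fit used for the calls above. Without WT_AOMDSS 3 both passed (limma, adjusted p = 0.0101 and 0.0108), under the same filter. With slide as a block their changes with WT marrow were 0.11 and 0.89, against -2.39 and -2.92 without it. Dnajb13 stood at -3.93, -3.73 and -4.33 in WT_untreated and at -3.90 in KO_untreated 1, the arrays of slide 1, and at -8.07 to -5.47 in the other 8 mice.

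Bag proteins release clients from Hsp70. With WT marrow 5 of 6 changes were positive with a median of 0.19, with KO marrow 5 of 6 were negative with a median of -0.24, and 0 passed, and with normexp background correction the medians were -0.21 and -0.11. Bag3, which steers clients to autophagy, stood at 2.81, 2.54 and 2.64 in WT_untreated, at 2.70, 2.86 and 3.42 in WT_AOMDSS, at 3.08, 2.78 and 3.13 in KO_untreated and at 2.39, 2.44 and 3.43 in KO_AOMDSS. Bag2 stood at -2.33, -2.86 and -2.09, at -1.39, -1.74 and -1.28, at -2.14, -2.28 and -2.22 and at -2.77, -2.25 and -2.32 in that order. The treated mice with WT marrow were the 3 highest for Bag2, above all 9 others. Its change with WT marrow was 0.96 ± 0.34 (limma, adjusted p = 0.0756).

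Small heat shock genes spread widely within groups, and 0 of 5 passed. Hspb1, which encodes Hsp25 of the mouse, stood at -1.16, -0.56 and -1.82 in WT_untreated, at -3.24, 0.28 and -2.10 in WT_AOMDSS, at -1.84, -3.32 and -2.93 in KO_untreated and at -2.82, -2.50 and -1.75 in KO_AOMDSS. Hspb8, the partner of Bag3, stood at -6.85, -3.32 and -5.42, at -7.09, -0.26 and -6.17, at -4.66, -7.19 and -9.16 and at -5.31, -5.74 and -4.35 in that order, with 7 of 12 arrays well above background. WT_AOMDSS 2 was the highest mouse for both. In that mouse the 10 smooth muscle genes summed to 129, against 13.7 to 73.4 in the others, and the muscle gene Cnn1 stood at 4.68, and the part of muscle in the level of these genes was not tested. Hspb2 and Hspb7, forms best known from muscle, were high on slide 1. Hspb7 stood at -1.47, -1.77 and -3.26 in WT_untreated and -2.86 in KO_untreated 1, and at -5.79 to -3.23 in the other 8 mice, so that the slides met at 1 mouse each. Of the 5 changes with WT marrow 4 were negative, with a median of -1.80, while with slide as a block all 5 were positive, with a median of 0.88, as they were with normexp background correction, with a median of 0.34. The median of -1.80 is the change of Hspb3, which entered the test only through WT_untreated, so the filter itself favours its fall. Hspb8 entered only through KO_AOMDSS.

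**Figure D3:**
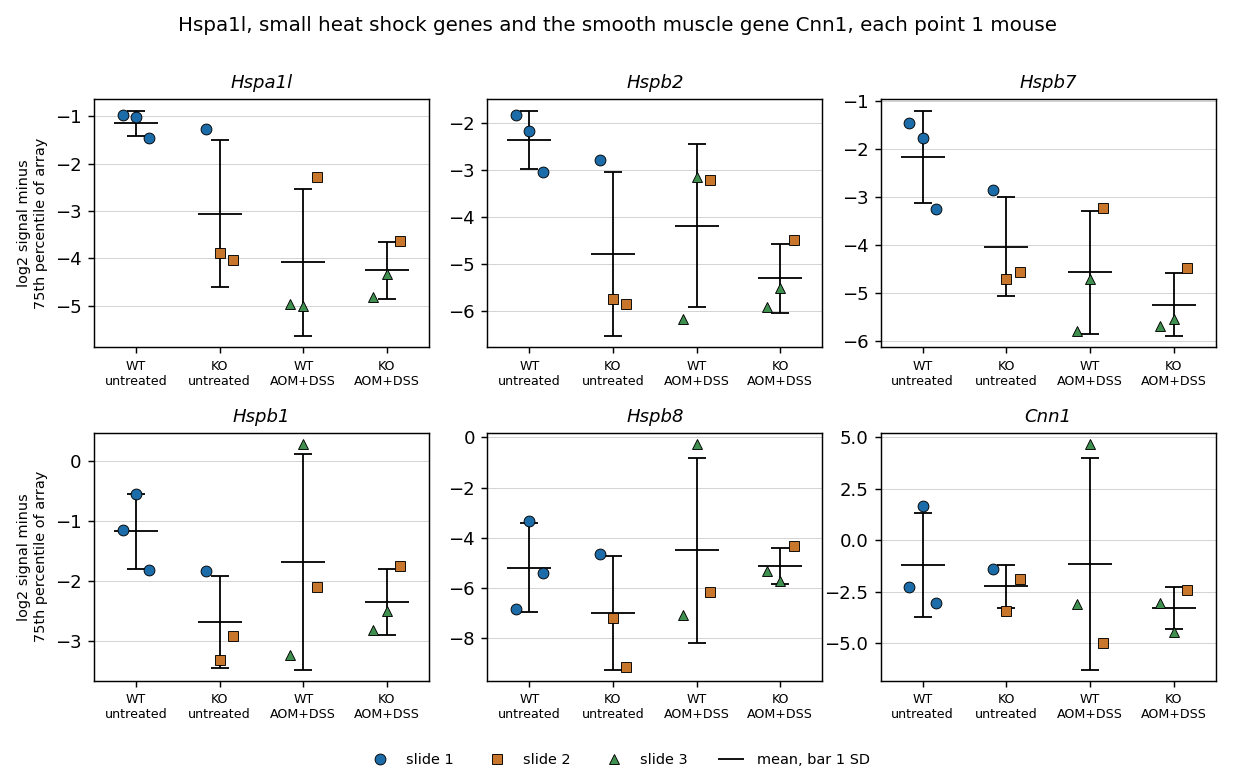
Level (y axis, log2 signal minus the 75th percentile of the array) of Hspa1l, Hspb2, Hspb7, Hspb1, Hspb8 and the smooth muscle gene Cnn1 in each of the 12 mice by group (x axis), with the slide as colour and shape and the group mean ± SD in black. Slide 1 arrays (circles) are high for Hspa1l, Hspb2 and Hspb7 in both untreated groups, and WT_AOMDSS 2 stands out for Hspb1, Hspb8 and Cnn1, at 0.28, -0.26 and 4.68.

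With KO marrow, treatment changed none of the 54 genes past the threshold: 0 were called in limma, 8 had an unadjusted p under 0.05 (14.8%), slide as a block called 2 and array quality weights 14. Of all genes 3.15% were called, 1.85% higher and 1.3% lower, and 14.5% had an unadjusted p under 0.05. The members with the largest statistics, not past the threshold, were Hspa1a at -2.04, Dnajb4 at -1.23 and Hspa4l at 0.78 ± 0.27 (adjusted p = 0.171). Treated and untreated mice did not overlap in 3 genes on the higher side (5.56%, background 11.1%) and in 9 on the lower side (16.7%, background 12.3%). The median change was -0.23 over the 54 genes and -0.11 over all genes. Without WT_untreated 3, Hspa1a was called, without WT_AOMDSS 3, Hspb11 was called, and slide as a block called Bag1 and Hspb11, all 3 lower in treated mice. Bag1 stood at 3.81, 4.20 and 4.08 in KO_untreated and at 3.63, 3.70 and 3.25 in KO_AOMDSS, and Hspb11 at 2.70, 2.67 and 2.68 and at 2.12, 1.89 and 1.68.

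In untreated mice, mean levels of most of these genes were higher with KO than with WT marrow, and no gene passed. Of the 54 differences 43 were positive (79.6%), where 39.2% of all genes were, and the median was 0.27 against -0.18. In limma 0 were called, as were 0% of all genes, and 11 had an unadjusted p under 0.05 (20.4%), where all genes gave 12.3%. With normexp background correction 0 were called, and with array quality weights 24. The largest statistics were those of Hsph1 (1.39 ± 0.23), Chordc1 (0.84 ± 0.21) and Hspa8 (0.81 ± 0.23), each at an adjusted p of 0.403. In these 3 genes every untreated mouse with KO marrow was above every one with WT marrow on the probe used. On the second probe of Hspa8 these groups overlapped, with a lowest value of 4.61 in KO_untreated and a highest of 4.66 in WT_untreated. The groups did not overlap in 14 genes on the higher side (25.9%, background 6.18%) and in 1, Hspb1, on the lower side (1.85%, background 6.57%). All 9 TRiC genes and all 6 Bag genes had positive differences, with medians of 0.62 and 0.27, and all 5 small heat shock genes negative ones, with a median of -1.80. With slide as a block 8 of 9, 5 of 6 and 3 of 5 kept those signs, and with normexp background correction 5 of 6 Bag genes did. Hspb3 entered the test only through WT_untreated, so the filter itself favours its negative difference.

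Within slide 1, which holds KO_untreated 1 and the 3 WT_untreated mice, the differences were 1.51 for Hsph1, 0.77 for Chordc1, 0.72 for Hspa8 and 1.70 for Hspa1a, so the sizes were close to those over all mice, each at an adjusted p of 1. For Hspa1l the difference was -1.92 over all mice and -0.13 within slide 1, and for Hspb1 it was -1.52 and -0.66. Without KO_untreated 1, the mouse on slide 1, 6 genes were called: Hsph1, Chordc1 and Cct4 higher, and Hspa1l, Hspb2 and Dnajb13 lower. Dnajb13 entered the test only through WT_untreated, so the filter itself favours its lower level here. This comparison shares the WT_untreated mice with the treatment comparison with WT marrow, so a low or high level in those 3 mice enters both. For Hsph1 the 2 values were 1.39 and 1.89, for Chordc1 0.84 and 0.93, for Hspa8 0.81 and 0.56 (the second not called), for Cct8 0.68 and 1.13, and for Hsp90aa1 0.45 and 0.91.

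In treated mice, most differences between the marrows were small and negative. Of the 54 genes 41 were lower with KO marrow (75.9%), where 51.8% of all genes were, and the medians were -0.24 and -0.02. In limma 0 were called, as were 0% of all genes, and 2 had an unadjusted p under 0.05 (3.7%), where all genes gave 0.8%. Slide 2 alone gave 16, but from 1 mouse of each marrow, with the spread taken from the 2 untreated mice there, so neither treated group has a spread of its own. The largest statistics were those of Chordc1 (-0.60 ± 0.21), Bag2 (-0.98 ± 0.34) and Hsp90ab1 (-0.57 ± 0.29), each at an adjusted p of 1. The groups did not overlap in 0 genes on the higher side (background 1.72%) and in 3 on the lower side, Bag2, Cct8 and Chordc1 (5.56%, background 1.38%). On the second probe of Chordc1 these groups overlapped, at -1.49, -1.73 and -2.30 in WT_AOMDSS and -2.04, -1.87 and -2.27 in KO_AOMDSS. The last value of each group is the mouse on slide 2. The difference on that probe was -0.22, so the separation of Chordc1 rests on 1 probe. For Chordc1, on the probe used, the difference was -0.58 within slide 2 and -0.61 within slide 3. For Hsph1 it was -0.54 and 0.19, for Ahsa1 -1.23 and 0.12, and for Hsp90ab1 -1.08 and -0.32 on those slides, where slide 2 holds the dim array WT_AOMDSS 3. With normexp background correction the medians were 0.04 over the 54 genes and -0.43 over all genes.

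The marrow-by-treatment difference, the treatment change with KO marrow minus that with WT marrow, is the contrast that was known when the list was proposed, so its values are given as a description. Of the 54 genes 37 had a negative difference (68.5%), where 40% of all genes did, and the medians were -0.43 and 0.18. In limma 0 were called, as were 0% of all genes, and 8 had an unadjusted p under 0.05 (14.8%), where all genes gave 3.38%. With array quality weights 18 were called. The largest statistics were those of Chordc1 (-1.43 ± 0.29), Hsph1 (-1.44 ± 0.32) and Hspa8 (-1.07 ± 0.32). TRiC genes were negative in 8 of 9 with a median of -0.79, both Hsp90 genes at -0.58 and -1.25, the Hsp90 cochaperones in 3 of 3 with a median of -0.70, and the small heat shock genes positive in 5 of 5 with a median of 1.18, which was -0.30 with slide as a block. The value 1.18 is that of Hspb8, which entered the test only through KO_AOMDSS, while Hspb3 entered only through WT_untreated. For both the filter itself favours a positive difference. In 2 of the 54 genes, Chordc1 and Hspa8, treated mice lay above untreated ones with WT marrow and below them with KO marrow without overlap (3.7%, background 0.0423%), and in 0 the reverse held (background 0.00847%). This holds on 1 probe of each gene. On the second probe the groups overlapped with KO marrow in both genes, and with WT marrow in Hspa8.

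**Figure D4:**
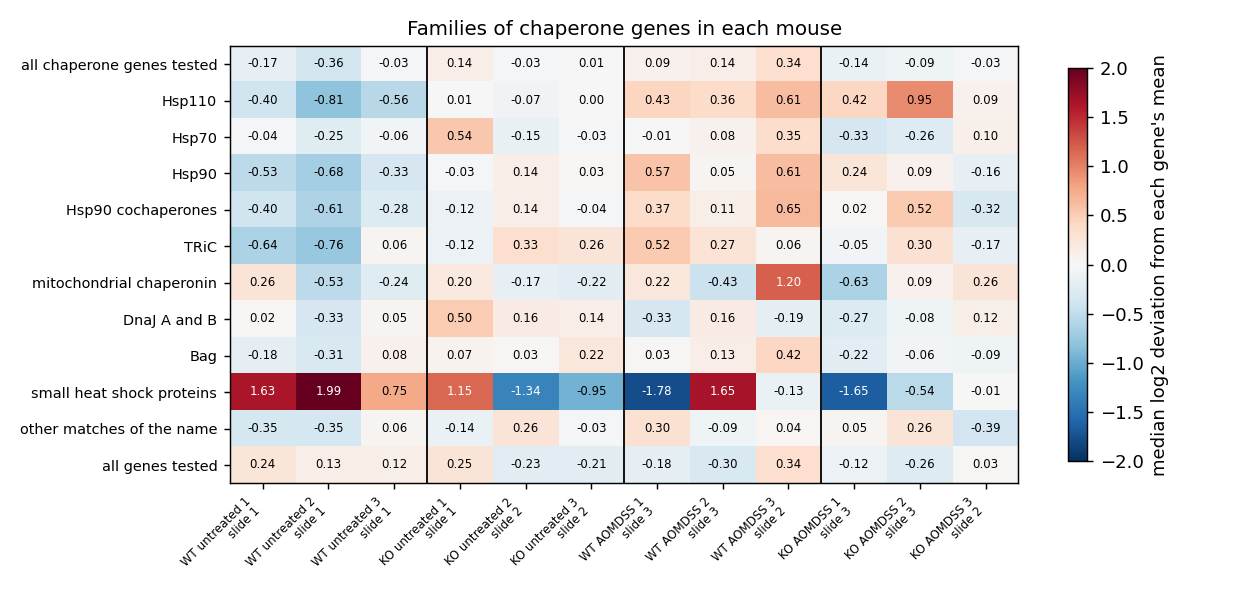
Each cell gives, for 1 mouse (x axis, with its slide) and 1 family (y axis), the median over the family's genes of the log2 level minus the gene's mean over the 12 mice, with the median of all genes tested in the last row. The Hsp90 family is at -0.53, -0.68 and -0.33 in the 3 WT_untreated mice and at -0.16 to 0.61 in the others, and the small heat shock family ranges from -1.78 to 1.99.

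The treatment changes with WT marrow were set against the slide for the 9 called genes. Slide as a random block, which borrows from differences between slides, gave 1.88 for Hsph1 (limma, adjusted p = 0.0138), the only gene still called, 1.09 for Hsp90aa1 (adjusted p = 0.15) and 1.04 for Cct8 (adjusted p = 0.185). With slide as a fixed block the values were 1.29 for Hsp90aa1 (adjusted p = 0.179), 0.94 for Cct8 (adjusted p = 0.304), 0.99 for Cct6b (adjusted p = 0.366), 1.02 for Hspa4l (adjusted p = 0.304) and 0.89 for Ahsa1 (adjusted p = 0.402). All fixed-block values depend on KO_untreated 1, the link between slide 1 and the other slides. Hsp90ab1 and Hspa1l moved most, as given above for each. When the dim array WT_AOMDSS 3 was left out as well, a setting chosen after seeing the data, the values were 1.37 for Hsph1 (adjusted p = 0.211), 0.96 for Hsp90aa1, 0.82 for Cct8, 0.70 for Chordc1, 0.40 for Hspa4l, 0.12 for Cct6b and -0.01 for Ahsa1. The sizes of the last 3 with slide as a block thus rest on that array.

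**Figure D5:**
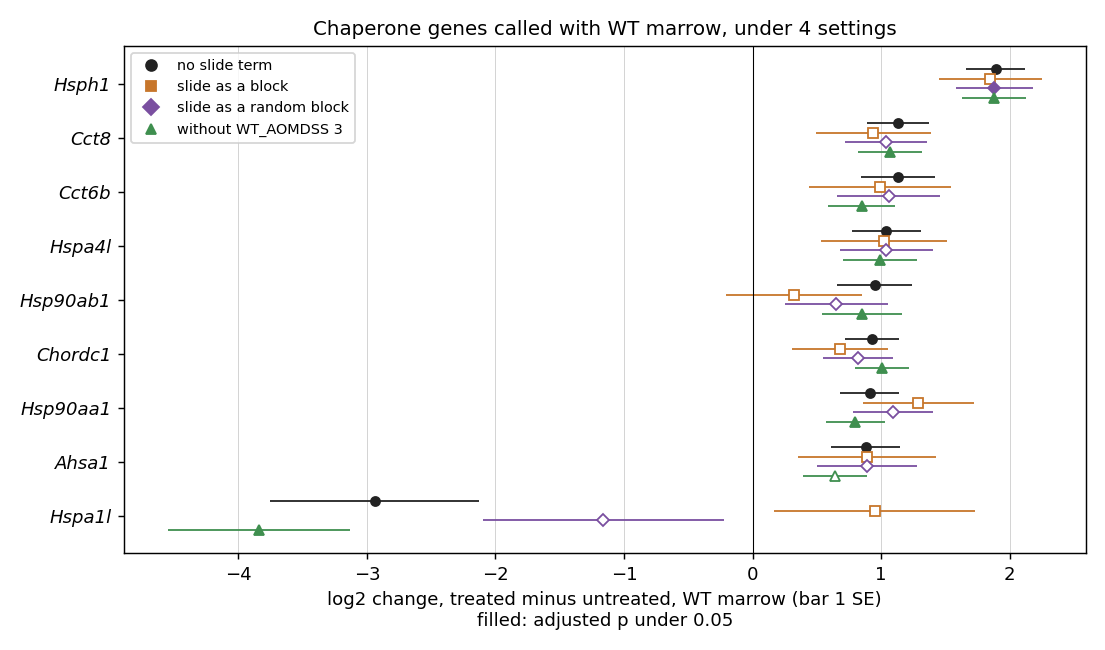
Log2 change from untreated to treated mice with WT marrow (x axis, bar 1 SE) of the 9 called genes under 4 settings: no slide term, slide as a block, slide as a random block, and without the dim array WT_AOMDSS 3. Filled points passed an adjusted p of 0.05 in limma. Hsph1 lies between 1.85 and 1.89 throughout, and Hspa1l runs from -3.84 to 0.95.

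Other genes of the same pathways were read from lists outside the rule. None of the 6 tested genes of HSF1 and its regulators passed in any comparison, and Hsf1 itself gave 0.59 ± 0.30 with WT marrow (adjusted p = 0.195) and 0.29 ± 0.30 with KO marrow (adjusted p = 0.735). Of 17 partner proteins of Hsp90 and Hsp70, St13, which binds Hsp70, rose by 1.03 ± 0.24 and Tomm70a, a mitochondrial import receptor that binds both, by 0.91 ± 0.24 with WT marrow (limma, adjusted p = 0.0225 and 0.0319). WT_AOMDSS 1 was missing for Tomm70a, so its rise rests on WT_AOMDSS 2 and the dim array WT_AOMDSS 3, at 2.77 and 3.16. Sugt1, a partner of Hsp90, fell with KO marrow by 0.87 on the log2 scale (limma, adjusted p = 0.0498). With WT marrow it stood at 5.34, 4.78 and 4.98 untreated and at 4.49, 4.34 and 4.29 treated, also lower, without passing. None of 10 prefoldin and TRiC helper genes and none of 24 DnajC genes passed, with medians of -0.01 and 0.08 with WT marrow.

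Of 16 chaperone and stress genes of the endoplasmic reticulum, 3 rose with WT marrow and 0 passed with KO marrow. Hspa5, the Hsp70 of that compartment, rose by 0.85 ± 0.23 (limma, adjusted p = 0.0337), Hsp90b1, its Hsp90, by 0.96 ± 0.25 (adjusted p = 0.0303), and Creld2 by 1.25 ± 0.27 (adjusted p = 0.0198). With KO marrow the 3 gave 0.04, 0.42 and 0.97. WT_AOMDSS 1 was missing for Creld2, so its rise with WT marrow rests on WT_AOMDSS 2 and the dim array WT_AOMDSS 3, at 5.39 and 5.46. Of 10 mitochondrial chaperones and proteases Hscb fell with KO marrow, by 1.12 on the log2 scale (limma, adjusted p = 0.0379). With WT marrow Hscb stood at 1.71, 1.68 and 2.44 untreated and at 1.00, 1.38 and 1.64 treated, also lower, without passing. A list of immediate early and other stress genes, which can also respond to handling of tissue, gave 2 of 14 called with WT marrow and 3 with KO marrow, all higher. Among these was Egr1 at 2.08 ± 0.36 with KO marrow (limma, adjusted p = 0.0079). With WT marrow Egr1 stood at 1.28, 1.13 and 0.48 untreated and at 1.81, 2.39 and 1.56 treated, also higher, without passing. Of 11 proliferation genes 2 rose with WT marrow, Mcm3 by 1.65 and Rrm2 by 1.54, and 0 passed with KO marrow, with medians of 1.13 and 0.50, beside the changes of TRiC and Hsp90 genes, and their part in those was not tested. Cryaa, a kin of the small heat shock genes, fell with WT marrow by 2.79 on the log2 scale (adjusted p = 0.0151), and like Hspa1l it was highest on slide 1, at -3.08 to -2.15 there and -5.68 to -4.61 on the other slides.

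The authors' deposited table lists group means for 2506 probes, each relative to the median of its probe, and 6 of them read genes of this list: 4 of Hspa1a, 1 of Dnajb4 and 1 of Hspb6. In the authors' deposited table the brightest of the Hspa1a probes stood at -0.32 in WT_untreated, 1.22 in KO_untreated, -0.12 in WT_AOMDSS and -0.81 in KO_AOMDSS. The 3 other probes of Hspa1a in the authors' deposited table were likewise highest in KO_untreated, at 1.03, 1.66 and 1.38.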

How the data were processed

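Colon mucosa of 12 mice was measured on 1-colour Agilent arrays. Per the file headers, the deposited values are linear spot intensities with the background already subtracted by the scanner software (Agilent Feature Extraction, 10.7.3.1). The authors also deposited a table of 2506 probes, which on comparison with the arrays held log2 group means minus the probe median. The choice of its probes is not stated in the labels or headers.

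The log2 processed signal minus the 75th percentile of its array was fitted with limma 3.58.1 (R 4.3.3): 1 mean per group over all 12 arrays, variances with an intensity trend, and Benjamini-Hochberg adjustment over 23614 genes in each of 5 comparisons. Probes had to be well above background on all 3 arrays of a group, and each gene took its probe of highest mean. The files give no gene names, so accessions were matched to RefSeq symbols. They also give median but no mean signals, so normexp (offset 50) used medians.

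The members and lists were chosen with earlier results of these data known. The genes named were a core list of chaperones, up to 8 called members per comparison by size among those whose groups do not overlap, the 3 largest statistics where none was called, and up to 4 called genes of each other list. Same-numbered mice of different groups did not deviate together.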

Additional observations from a re-analysis of the deposited data

Results flagged for a closer look

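In Chordc1 and Hspa8 the treated mice moved in opposite ways in the 2 marrows: every treated mouse with WT marrow was above its untreated group, and every treated mouse with KO marrow was below its own. The treatment change with KO marrow minus that with WT marrow was -1.43 for Chordc1 and -1.07 for Hspa8. The test of that difference itself did not pass for either gene (limma, adjusted p = 0.902). The second probe of Chordc1 gave -0.83, with a treatment change of 0.16 with KO marrow, and the second probe of Hspa8 gave -1.23. On these second probes treated and untreated mice overlapped with KO marrow in both genes, and with WT marrow in Hspa8. With slide as a block the differences were -1.36 for Chordc1 and -0.97 for Hspa8, both at an adjusted p of 1, and no slide holds all 4 groups.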

How the results depend on the processing

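Over 26 settings, 1 of them (slide as a block without WT_AOMDSS 3) chosen after seeing the data, 201 of 238 recomputed counts and medians stayed close in size. Every comparison but treatment with WT marrow started from 0 called genes, and a recomputed 0 counted as close, so this total says little about the counts. The count with WT marrow, 9 as fitted, was 0 to 38 under the settings listed below. Of 119 medians over the 54 genes 1 changed sign, that between the marrows in treated mice. Of 2851 single gene values 2707 stayed on their side of the threshold and 60 gained the call. Another 81 lost it, all of them among the 207 values of called genes, so the calls held less often than the total shows. The sign turned in 3 of 207 values of called genes and in 151 of 2644 values of genes not called. The number of genes called with WT marrow was 1 with normexp background correction, 0 with slide as a block, 1 with slide as a random block, 38 with array quality weights and 0 with slide as a block without WT_AOMDSS 3. With KO marrow it was 1, 2, 0, 14 and 1 under those settings, and 14 within slide 2, from 1 treated mouse against 2 untreated ones. Array quality weights called 24 genes between the marrows in untreated mice and 18 for the marrow-by-treatment difference, and slide 2 alone gave 16 between the marrows in treated mice, from 1 mouse against 1. The cause of these moves was not tested.

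The median change with WT marrow was 0.17 with normexp, 0.44 for probes well above background on all 12 arrays, 0.53 with slide as a block and 0.45 with that block without WT_AOMDSS 3. With KO marrow it was -0.06 with normexp, -0.01 with slide as a block, and -0.05 both within slide 2 and with the block without WT_AOMDSS 3. Between the marrows in treated mice it turned to 0.04 with normexp and was -0.44 within slide 2, and the marrow-by-treatment median was -0.56 for probes well above background on all 12 arrays and -0.31 for the mean of a gene's probes. Hspa1l turned to 0.95 with slide as a block, and Hsp90ab1 to -0.19 and Ahsa1 to -0.01 with that block without WT_AOMDSS 3.

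Leaving out 1 array at a time gave 1 to 20 genes called with WT marrow, 0 to 1 with KO marrow and 0 to 6 between the marrows in untreated mice, with 0 in the other comparisons. The medians then ran from 0.27 to 0.39 with WT marrow, -0.24 to -0.09 with KO marrow, 0.24 to 0.34 between untreated groups, -0.35 to -0.12 between treated groups and -0.54 to -0.31 for the marrow-by-treatment difference. With the replicate number as a block 6 genes were called with WT marrow against 9 without it, and 0 in the other comparisons. The numbers did not pair the mice: 7 of 18 same-numbered pairs had a correlation over 0.1, with a median of -0.117, and in 11 of 36 searches of another group a mouse correlated best with its own number. With 3 mice per group, and slides that divide the groups unevenly, the number of arrays limits the precision.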
